A study of Mus musculus with 14 samples.

Results

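Transcripts of the enzymes and regulators of glycolysis, lactate export and the pentose phosphate pathway were followed in brain microglia of old mice after blockade of CD22. The 31 genes were taken by symbol from the deposited expression table of 24394 named genes, and all 31 were found. They fell into 17 genes of glucose uptake and glycolysis, 3 of lactate formation and export, 4 regulators and 7 of the pentose phosphate pathway. The anti-CD22 mice had received an antibody that blocks CD22, a sialic acid binding inhibitory receptor, and the IgG mice a control antibody, both pumped into the cerebrospinal fluid for 1 month. All were C57BL/6 mice of 18 months of age. Each group held 7 libraries, each from about 20000 living CD11b+ CD45lo cells sorted from the hemisphere opposite the cannula. No label ties a library to its own animal, so p-values here measure only the spread between samples, which may be technical. In bulk RNA, fewer cells of a type and less RNA per cell cannot be told apart.

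Glycolysis splits glucose in the cytosol into pyruvate and yields ATP and NADH. Lactate dehydrogenase turns pyruvate into lactate and restores NAD+, and monocarboxylate transporters carry the lactate out of the cell. The pentose phosphate pathway branches off after hexokinase. Its oxidative arm makes NADPH, used by the phagocyte oxidase and for glutathione, and its non-oxidative arm exchanges sugar phosphates between ribose and glycolysis. Macrophages, microglia among them, raise glycolysis when activated by bacterial products, in part through the transcription factor HIF-1.

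The HIF-1 factor is known to bind a short core next to many glycolytic genes, so the promoters of the 4 genes with the smallest p between the groups are shown. They are Pkm (pyruvate kinase, chr9:59656977-59657276, plus strand), Slc16a3 (the lactate exporter MCT4, chr11:120948817-120949116, plus strand), Ldhb (chr6:142507908-142508207, minus strand) and Ldha (chr7:46845554-46845853, plus strand), the genes of the heart-type and muscle-type lactate dehydrogenase subunits. Each stretch runs from 250 bases before to 50 bases after a RefSeq transcription start (GRCm38.p6) in the direction of transcription. Capitals mark ACGTG or GCGTG on either strand.
Pkm: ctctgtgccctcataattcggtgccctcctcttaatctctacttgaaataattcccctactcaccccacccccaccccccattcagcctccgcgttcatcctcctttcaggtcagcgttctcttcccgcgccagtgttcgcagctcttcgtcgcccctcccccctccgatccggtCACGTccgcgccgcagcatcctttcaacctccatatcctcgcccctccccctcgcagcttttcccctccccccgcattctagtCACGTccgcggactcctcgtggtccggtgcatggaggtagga
Slc16a3: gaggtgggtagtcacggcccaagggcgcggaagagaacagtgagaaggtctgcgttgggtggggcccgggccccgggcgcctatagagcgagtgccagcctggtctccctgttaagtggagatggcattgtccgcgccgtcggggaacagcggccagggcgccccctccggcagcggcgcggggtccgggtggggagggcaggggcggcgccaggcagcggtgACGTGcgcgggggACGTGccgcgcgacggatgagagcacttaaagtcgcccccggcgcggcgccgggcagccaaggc
Ldhb: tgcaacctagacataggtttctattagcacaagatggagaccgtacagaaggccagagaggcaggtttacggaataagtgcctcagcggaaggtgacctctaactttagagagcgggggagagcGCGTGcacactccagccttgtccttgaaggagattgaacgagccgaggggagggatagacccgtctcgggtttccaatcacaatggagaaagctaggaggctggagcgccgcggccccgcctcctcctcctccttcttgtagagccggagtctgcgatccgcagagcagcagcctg
Ldha: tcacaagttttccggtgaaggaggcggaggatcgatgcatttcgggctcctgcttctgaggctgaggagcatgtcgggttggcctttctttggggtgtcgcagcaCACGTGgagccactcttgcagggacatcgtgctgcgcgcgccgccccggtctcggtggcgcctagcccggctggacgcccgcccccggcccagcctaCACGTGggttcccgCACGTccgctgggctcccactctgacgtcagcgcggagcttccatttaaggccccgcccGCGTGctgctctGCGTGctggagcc
The Ldha window held 7 matches, of which 4 came from 2 palindromic CACGTG stretches that hold the letters once on each strand. The Pkm and Slc16a3 windows held 2 matches each and the Ldhb window 1. Pkm and Ldha have 2 RefSeq windows each, and the one with more matches is printed. Over all members, 30 had at least 1 window and 35 of their 44 windows (79.5%) held a match, against 61.8% of the windows of the genes tested and 43.8% of all 32851 windows. Counted by gene, 27 of 30 members (90.0%) held a match in a window, against 67.8% of the genes tested. CACGTG stood in 4 of the 44 windows (9.09%), against 10.1% of the windows of the genes tested. The 30 members have 44 windows in all, and the 8961 genes tested that have a window have 11420. These matches describe letters in a window and show no binding.

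The libraries held between 25505008 and 38101421 reads with anti-CD22 (6 libraries) and between 20221836 and 34505735 with IgG (7 libraries). Microglial markers were abundant. The summed normalized counts of 8 microglial genes ranged from 1720113 to 1853982 with anti-CD22 and 1630112 to 1936527 with IgG, and all 8 were present. Neutrophil genes (5 of 6 listed measured) summed to 0 to 7595 with anti-CD22 and 3.34 to 40365 with IgG, the highest sum being in IgG replicate 1, as was that of 4 monocyte genes at 9181. The highest monocyte sum with anti-CD22 was 2313. The median neutrophil sum was higher with anti-CD22, at 2096 against 1064 with IgG. The median monocyte sum was lower, at 546 with anti-CD22 against 660 with IgG. Genes of border-associated macrophages had a median sum of 890 with anti-CD22 and 446 with IgG. The ranges of the groups overlapped for each of these lists. The 5 oligodendrocyte genes summed to 4949 to 5659.7 with anti-CD22 and 5433 to 6707 with IgG, and the 5 neuronal genes to at most 92.9 with anti-CD22 and 67.1 with IgG. The globin genes, Cd3e, Gzma, Ms4a1 and Cldn5 were at 0 in every library, but other genes of their lists were measured. The 5 endothelial genes, Cldn5 among them, summed to 885 to 1235 with anti-CD22 and 635 to 1216 with IgG. The B cell genes (4 of 5 listed measured, Ms4a1 among them) summed to 1133 to 1463 with anti-CD22 and 1208 to 1640 with IgG. The erythroid genes reached at most 127 with anti-CD22 and 143 with IgG, and the T and NK cell genes 5.87 and 7.80. Length and GC dependence of the libraries moved with the groups. The rank correlation of a gene's deviation in a library with its transcript length ranged from -0.27 to 0.33 with anti-CD22 and from -0.26 to -0.0029 with IgG, and was steepest in anti-CD22 replicates 1, 2 and 3 (0.31, 0.29 and 0.33). The same correlation with GC content ranged from -0.40 to 0.26 with anti-CD22 and from 0.0093 to 0.28 with IgG, and was -0.31, -0.40 and -0.36 in anti-CD22 replicates 1, 2 and 3. Values after removal of the length and GC trend, or without those 3 libraries, are given for the members where they moved a log2 fold change by over 1.5 times or turned its sign.

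The levels of the members were compared first, per kilobase of the principal transcript, as normalized counts averaged over 7 libraries of a group with their SD. Lactate dehydrogenase was the most abundant step, with Ldha and Ldhb together at 19720.4 ± 1453 with anti-CD22 and 22016 ± 1526 with IgG. Gapdh, the enzyme that oxidises glyceraldehyde 3-phosphate and forms NADH, came next at 13917 ± 1282 with anti-CD22 and 15284 ± 867 with IgG. Ldhb, whose subunit favours the conversion of lactate to pyruvate, stood above Ldha, whose subunit favours lactate formation. Ldhb made up 71.2% ± 1.19 with anti-CD22 and 71.9% ± 1.67 with IgG of the summed lactate dehydrogenase level.

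**Figure D1:**
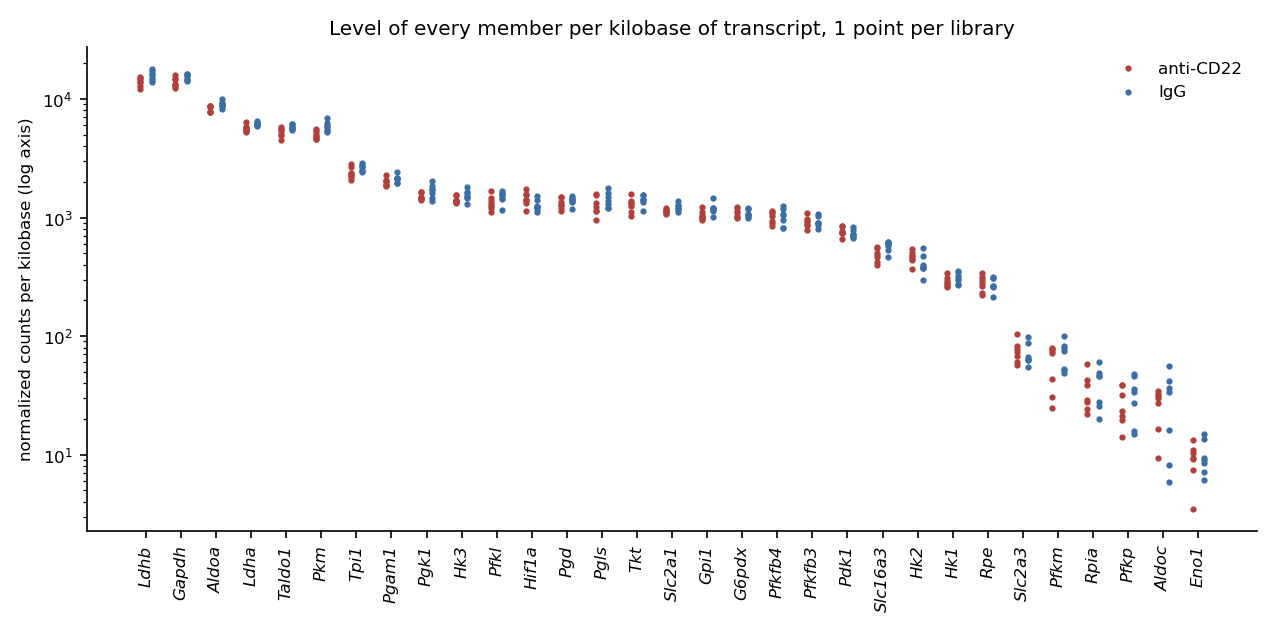
Normalized counts per kilobase of transcript (log axis) for the 31 members in order of their mean, 1 point per library, anti-CD22 left and IgG right of each position. Levels ran from about 14045 with anti-CD22 and 15852 with IgG for Ldhb to 9.14 with anti-CD22 and 9.77 with IgG for Eno1, and the ranges of the groups overlapped for every gene. The Eno1 level is uncertain, as reads may have been counted to its near-identical copy Eno1b, which is not shown.

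The next levels per kilobase were those of Aldoa, the main aldolase, at 8308 ± 505 with anti-CD22 and 9021 ± 561 with IgG together with Aldoc, of the non-oxidative enzyme transaldolase (Taldo1) at 5259 ± 449 with anti-CD22 and 5791 ± 270.4 with IgG, and of pyruvate kinase at 4977 ± 387 with anti-CD22 and 5896 ± 564 with IgG. Within each group, the levels of transaldolase and pyruvate kinase differed by less than the larger of their SDs. Transaldolase stood well above the other pentose phosphate enzymes. Transketolase (Tkt) reached 1284 ± 176 with anti-CD22 and 1407 ± 139.9 with IgG. The 3 oxidative enzymes G6pdx, Pgls and Pgd lay between 1102 and 1316 with anti-CD22 and between 1083 and 1421 with IgG. Ribose 5-phosphate isomerase (Rpia) was the scarcest step at 34.7 ± 12.8 with anti-CD22 and 39.3 ± 14.8 with IgG. The lactate exporter Slc16a3 reached 484 ± 62.4 with anti-CD22 and 574 ± 58 with IgG.

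Among the members, 1 isoenzyme held most of the level at several steps. Aldoa made up 99.7% ± 0.118 with anti-CD22 and 99.7% ± 0.214 with IgG of the aldolase level per kilobase, Slc2a1 (the glucose transporter GLUT1) 93.8% ± 1.35 with anti-CD22 and 94.5% ± 1.36 with IgG of the level of Slc2a1 and Slc2a3, and Pfkl, the liver-type phosphofructokinase, 94% ± 1.97 with anti-CD22 and 93.6% ± 1.75 with IgG of the phosphofructokinase level. Other hexose transporters outside the members stood above Slc2a1. Slc2a5 (GLUT5, a fructose transporter) reached 19203 ± 1361 normalized counts per kilobase with anti-CD22 and 19335 ± 2537 with IgG, and Slc2a8 (GLUT8) 2011 ± 237 with anti-CD22 and 2203 ± 261 with IgG, beside 1134 ± 49.1 with anti-CD22 and 1227 ± 82.1 with IgG for Slc2a1. Among hexokinases Hk3, an isoenzyme typical of myeloid cells, made up 65.5% ± 2.43 with anti-CD22 and 68.3% ± 4.06 with IgG, Hk2 21.3% ± 2.31 with anti-CD22 and 18% ± 3.84 with IgG and Hk1 13.2% ± 1.05 with anti-CD22 and 13.7% ± 1.3 with IgG. Pfkfb3 and Pfkfb4, the enzymes that make and break fructose 2,6-bisphosphate, the activator of phosphofructokinase, shared their step almost evenly, at 47.7% ± 2.46 with anti-CD22 and 47.6% ± 4.27 with IgG for Pfkfb3. Each of these shares differed between the groups by less than its SD among the IgG libraries. Between libraries of a group the SD of the normalized counts ran from 4.33% of the mean for Slc2a1 to 41.6% for Pfkm with anti-CD22, and from 3.21% for Ldha to 66.3% for Aldoc with IgG.

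**Figure D2:**
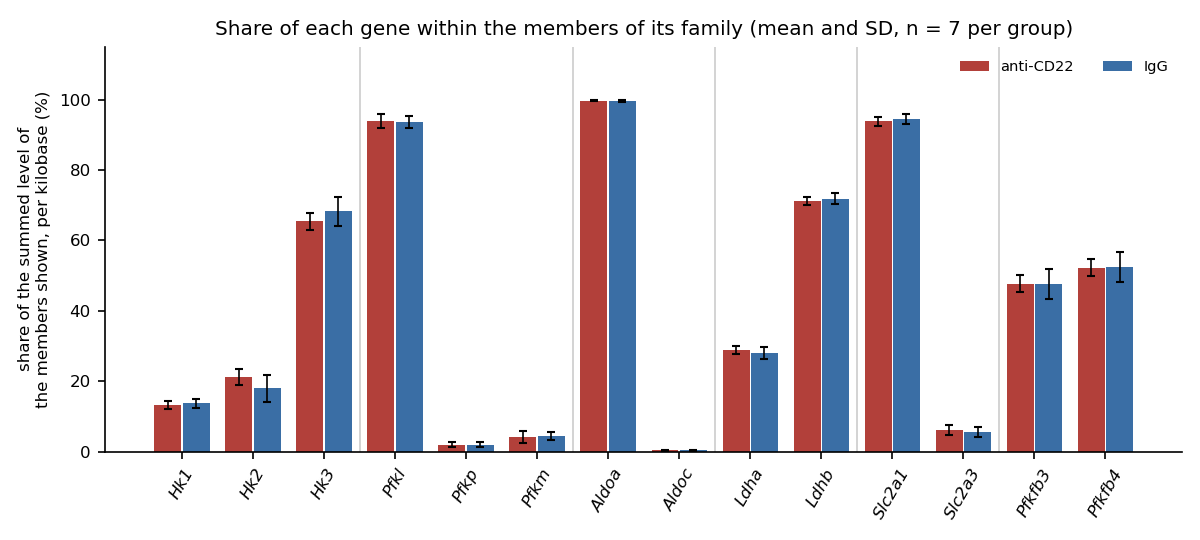
Share (%) of each gene in the summed level per kilobase of the members of its family; bars are means and error bars SDs over 7 libraries, anti-CD22 left and IgG right of each pair. Aldoa, Slc2a1 and Pfkl each held over 90% of the level of the members shown in both groups, where Slc2a1 is set beside Slc2a3 alone, and the groups' error bars overlap for every gene.

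Enolase could not be read from Eno1 alone. Eno1 averaged 18.5 ± 6.2 normalized counts with anti-CD22 and 19.8 ± 6.51 with IgG (SD, n = 7 each), while the table's Eno1b, a near-identical copy annotated on chromosome 18, averaged 7859 ± 636 normalized counts with anti-CD22 and 8865 ± 989 with IgG. The authors' counting could have split or moved reads between the copies, so both values are uncertain. Gapdh, Pgam1, Ldha, Aldoa, Tpi1, Pgk1 and Pkm also have processed pseudogenes in the mouse genome, and their counts carry the same uncertainty to an unknown degree.

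Whether the members differed between anti-CD22 and IgG was tested with limma on log2(normalized count + 1) for all 11646 genes with a mean of at least 10 normalized counts. All 31 members passed that filter. Means are given ± SD over 7 libraries per group. None of the 31 passed an adjusted p of 0.05 by limma, where 0.00859% of all genes tested did (1 gene). By edgeR on the reads of 13 libraries, all but anti-CD22 replicate 3, none passed, and by DESeq2 on the same reads none passed (0.0% and 0.41% of all genes with an adjusted p). DESeq2 gave no adjusted p for 5 members (Pfkp, Pfkm, Aldoc, Eno1 and Rpia). At an unadjusted limma p under 0.05, 8 members lay lower with anti-CD22 (Pkm, Slc16a3, Ldhb, Ldha, Taldo1, Gpi1, Gapdh and Aldoa) and 1 higher (Hif1a), where 5.95% of all genes tested lay lower and 6.8% higher. These members were all among the 24 with a mean of at least 1000 normalized counts. Of the 4274 genes tested with such a mean, 418 lay lower and 372 higher at that p. By the count models, 4 members were at an unadjusted p under 0.05 by edgeR and 7 by DESeq2, where 8.82% and 10% of all genes were. In no member were the 2 groups apart without overlap (0.12% of all genes tested were apart and lower, 0.137% apart and higher).

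The members' log2 fold changes lay mostly below 0. The count was 24 of 31 members, with a median of -0.12, against 49.8% of all genes tested with a median of 0.0011. Among genes with a mean of at least 1000 normalized counts it was 20 of 24 members, with a median of -0.12, against 53.3% of 4274 genes with a median of -0.010. After removal of the trend, 26 of 31 members lay below 0 with a median of -0.074, against 52.9% of all genes with a median of -0.010, and 3 members (Pkm, Slc16a3 and Gapdh) lay lower at an unadjusted p under 0.05, against 4.81% of all genes lower and 8.93% in either direction. The trend used each gene's longest transcript, which for Gapdh has 3289 bases against 1420 for its principal transcript. Without anti-CD22 replicates 1, 2 and 3, 23 of 31 lay below 0, with a median of -0.055. These shares describe the list and carry no test.

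**Figure D3:**
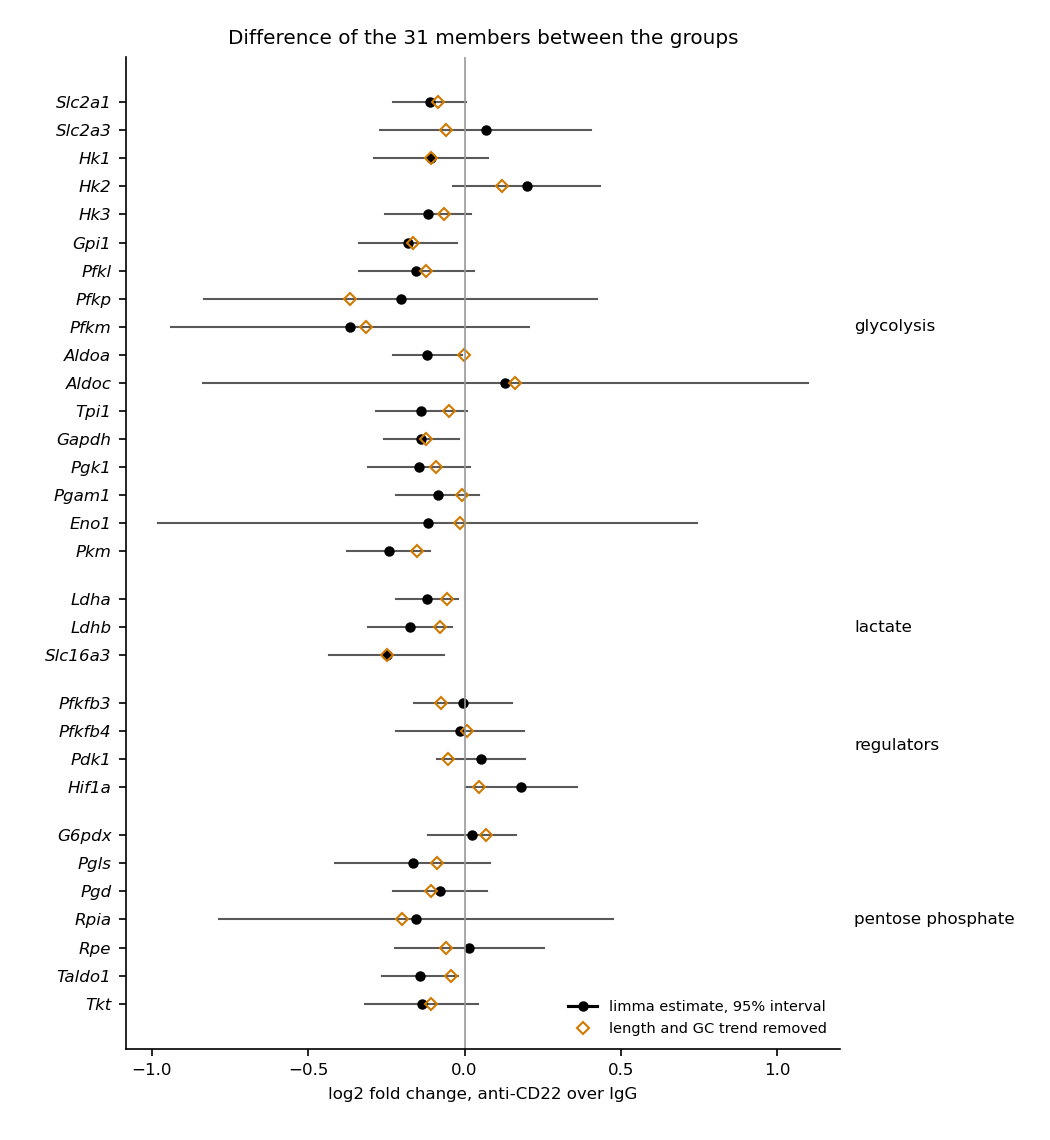
Log2 fold change of anti-CD22 over IgG for the 31 members by role, with filled points and lines for the limma estimate and its 95% interval and open diamonds for the estimate after removal of the length and GC trend. The lactate genes all lie below 0, from -0.25 for Slc16a3 to -0.12 for Ldha, and the widest intervals belong to Aldoc, Eno1, Pfkm, Pfkp and Rpia, which have low counts. The count of Eno1 is uncertain because of its copy Eno1b.

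Of the uptake and upper glycolysis steps, none of the genes passed the threshold. Slc2a1 averaged 3698 ± 160 normalized counts with anti-CD22 and 3999 ± 268 with IgG (SD, n = 7 each), a log2 fold change of -0.11 (SE 0.056, 95% interval -0.23 to 0.0060, limma adjusted p = 0.416), with 6 anti-CD22 libraries below the median of the IgG libraries. The second transporter Slc2a3 (GLUT3) averaged 295 ± 61.8 normalized counts with anti-CD22 and 281 ± 61.8 with IgG, with a log2 fold change of 0.068 that became -0.058 with the trend removed. Hexokinases trap glucose as glucose 6-phosphate. Hk1 averaged 1109 ± 112 normalized counts with anti-CD22 and 1194 ± 127 with IgG and Hk3 4584 ± 275 normalized counts with anti-CD22 and 4987 ± 503 with IgG, with log2 fold changes of -0.11 and -0.12. Hk2, the inducible hexokinase, averaged 2554 ± 317 normalized counts with anti-CD22 and 2248 ± 452 with IgG, with a log2 fold change of 0.20 (adjusted p = 0.462) and 6 anti-CD22 libraries above the median of the IgG libraries. The differences of the 3 hexokinases were of unlike sign. With the trend removed they were 0.12 for Hk2 and -0.066 for Hk3, and without IgG replicate 6 that of Hk2 was 0.13. Without anti-CD22 replicates 1, 2 and 3 Slc2a3 stood at -0.098.

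Gpi1, which converts glucose 6-phosphate to fructose 6-phosphate, averaged 3037 ± 262 normalized counts with anti-CD22 and 3449 ± 390.5 with IgG, a log2 fold change of -0.18 (SE 0.075, 95% interval -0.34 to -0.024, limma adjusted p = 0.344). IgG replicate 1 alone stood at 4231, and without it the log2 fold change was -0.13. Pfkl, the main phosphofructokinase and the committed step of glycolysis, averaged 5006 ± 693 normalized counts with anti-CD22 and 5559 ± 625 with IgG (log2 fold change -0.15, adjusted p = 0.469), and the value was -0.032 without anti-CD22 replicates 1, 2 and 3. The scarce isoforms Pfkm and Pfkp, named for muscle and platelets, had log2 fold changes of -0.37 and -0.20 with 95% intervals from -0.94 to 0.21 and from -0.83 to 0.42. Pfkm was at -0.15 without the 3 libraries and -0.18 without anti-CD22 replicate 2, and Pfkp at -0.36 with the trend removed and -0.067 without anti-CD22 replicate 7. Aldoa averaged 12515 ± 769 normalized counts with anti-CD22 and 13587 ± 853 with IgG (log2 fold change -0.12, adjusted p = 0.365), with every anti-CD22 library below the IgG median, and its value was -0.00033 with the length and GC trend removed and -0.048 without the 3 libraries. Aldoc had 71.8 ± 26 normalized counts with anti-CD22 and 78.6 ± 52.1 with IgG, too few for a direction (log2 fold change 0.13, 95% interval -0.84 to 1.10, and -0.11 without the 3 libraries). Tpi1, triosephosphate isomerase, averaged 3845 ± 420 normalized counts with anti-CD22 and 4219.7 ± 278 with IgG (log2 fold change -0.14, and -0.050 with the trend removed and -0.073 without the 3 libraries).

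The lower steps, from glyceraldehyde 3-phosphate to pyruvate, included the gene with the smallest p of the pathway. Pkm, pyruvate kinase (chr9:59656368-59679375), had 11103, 11828 and 13563 normalized counts (lowest, median and highest) in the anti-CD22 libraries, against 12723, 14463 and 16748 in the IgG libraries. Every anti-CD22 library stood below the median of the IgG libraries and 5 below the lowest IgG library, so the groups overlapped in the upper anti-CD22 libraries. The comparison gave a log2 fold change of -0.24 (SE 0.064, 95% interval -0.38 to -0.11, limma adjusted p = 0.205) and amounted to a ratio of 0.845. It was -0.15 with the length and GC trend removed (unadjusted p = 0.0118) and -0.17 without anti-CD22 replicates 1, 2 and 3. Gene counts do not separate the M1 and M2 splice forms of pyruvate kinase.

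Gapdh (chr6:125161715-125166467), the most abundant glycolytic gene per kilobase, had 17685, 18983 and 22744 normalized counts (lowest, median and highest) in the anti-CD22 libraries, against 20048, 22053 and 22949 in the IgG libraries. The lowest 4 anti-CD22 libraries lay below every IgG library and the highest lay within the IgG range. The log2 fold change of -0.14 (SE 0.058, 95% interval -0.26 to -0.018, limma adjusted p = 0.346) was -0.12 after removal of the trend and -0.055 when the 3 libraries were left out. The trend was removed at the length of the longest transcript, 3289 bases for Gapdh, whose principal transcript has 1420. Its value with the trend removed is uncertain for that reason. Pgk1, the first ATP-yielding enzyme, averaged 2754 ± 185 normalized counts with anti-CD22 and 3063 ± 396 with IgG (log2 fold change -0.15, and -0.092 with the trend removed), with every anti-CD22 library below the IgG median. Pgam1, which moves the phosphate group of phosphoglycerate, averaged 3547 ± 266 normalized counts with anti-CD22 and 3765 ± 280.3 with IgG (log2 fold change -0.086). For Pgam1 the value was -0.0088 with the trend removed, -0.041 without the 3 libraries and -0.053 without IgG replicate 3. The log2 fold change of Eno1 was -0.12 with a 95% interval from -0.98 to 0.74 (-0.013 with the trend removed and 0.17 without the 3 libraries), and that of Eno1b was -0.17 (adjusted p = 0.349; -0.087 with the trend removed and -0.084 without the 3 libraries), with every anti-CD22 library below the IgG median. All 5 members of the lower steps, the uncertain Eno1 among them, lay below 0, with a median of -0.14, and with the trend removed of -0.092.

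**Figure D4:**
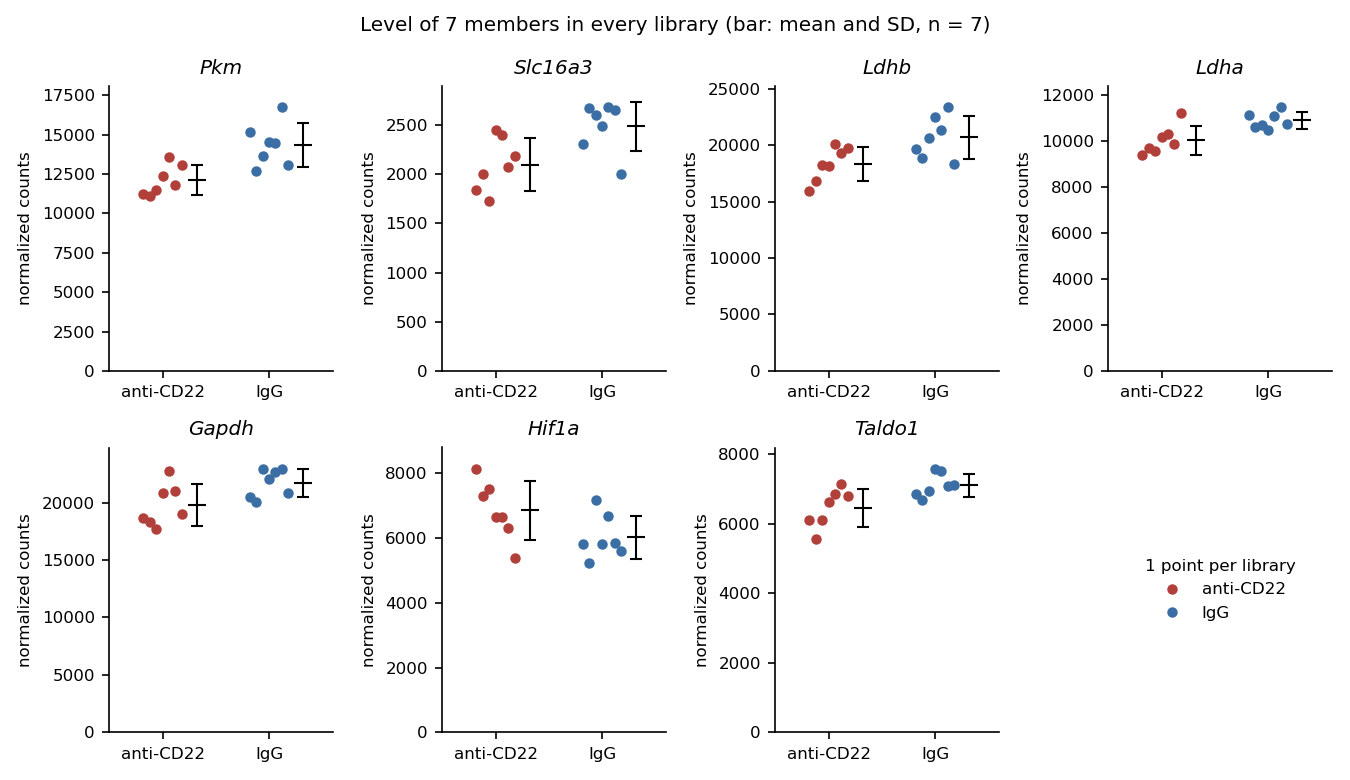
Normalized counts of Pkm, Slc16a3, Ldhb, Ldha, Gapdh, Hif1a and Taldo1 in every library (1 point each, in order of replicate number, axes from 0) with mean and SD at the side, anti-CD22 left and IgG right. For Pkm the means are 12105 with anti-CD22 and 14340.3 with IgG, and Hif1a is the 1 gene of the 7 whose anti-CD22 mean lies above the IgG mean.

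The 3 lactate members all lay lower with anti-CD22, and 0 passed the adjusted threshold (0.00859% of all genes tested did). At an unadjusted limma p under 0.05 stood 3 of 3, where 5.95% of all genes tested lay lower and 12.8% in either direction. Of the 4274 genes with a mean of at least 1000 normalized counts, 418 lay lower at that p. With the length and GC trend removed 1 of 3, Slc16a3, was under 0.05, where 4.81% of all genes lay lower and 8.93% in either direction. Slc16a3 (chr11:120948480-120960868), the MCT4 transporter that exports lactate from glycolytic cells, had 1731, 2076 and 2452 normalized counts (lowest, median and highest) in the anti-CD22 libraries, against 2005, 2605 and 2684 in the IgG libraries. Every anti-CD22 library stood below the median of the IgG libraries, and 3 lay below the lowest IgG library, which was IgG replicate 7. The estimate, a log2 fold change of -0.25 (SE 0.088, 95% interval -0.43 to -0.064, limma adjusted p = 0.289), was -0.25 with the trend removed (unadjusted p = 0.00997) and -0.12 without anti-CD22 replicates 1, 2 and 3.

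Ldhb (chr6:142490249-142507957) had 15933, 18248 and 20076 normalized counts (lowest, median and highest) in the anti-CD22 libraries, against 18302, 20644 and 23359 in the IgG libraries. Every anti-CD22 library stood below the median of the IgG libraries, with the higher ones inside the IgG range. For Ldhb the log2 fold change of -0.17 (SE 0.064, 95% interval -0.31 to -0.040, limma adjusted p = 0.296) was -0.079 after removal of the trend and -0.095 when the 3 libraries were left out. Ldha (chr7:46841475-46855627) had 9368, 9852 and 11219.7 normalized counts (lowest, median and highest) in the anti-CD22 libraries, against 10479, 10731 and 11467 in the IgG libraries. In Ldha 6 anti-CD22 libraries lay below every IgG library, and the seventh, replicate 7, lay inside the IgG range. For Ldha the log2 fold change of -0.12 (SE 0.048, 95% interval -0.22 to -0.021, limma adjusted p = 0.323) was -0.055 after removal of the trend and -0.069 when the 3 libraries were left out. The Ldha to Ldhb ratio differed by 0.053 (SE 0.055, two-sided exact permutation p = 0.351, adjusted p = 0.936) on the log2 scale, less than its spread.

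The longest transcripts of Ldha and Ldhb are short, at 1815 and 1304 bases, while that of Slc16a3 has 4335 bases. The median was 3219 bases over the members and 3341 over all genes tested. The GC content of the members had a median of 52.8%, against 49.5% for all genes tested.

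The regulators showed no common direction, and none of the 4 passed the threshold. Hif1a (chr12:73901375-73947530), the oxygen-labile subunit of HIF-1, had 5379, 6654 and 8148 normalized counts (lowest, median and highest) in the anti-CD22 libraries, against 5241, 5819 and 7182 in the IgG libraries. Anti-CD22 replicates 1, 2 and 3, those with the steepest length trend, lay above every IgG library and the other 4 lay within the IgG range. The estimate, a log2 fold change of 0.18 (SE 0.085, 95% interval 0.0048 to 0.36, limma adjusted p = 0.383), was 0.047 after removal of the trend and 0.054 when these 3 libraries were left out. Hif1a mRNA does not measure HIF-1 protein, which is set mainly by oxygen-dependent decay. Pfkfb3 averaged 4258 ± 439.7 normalized counts with anti-CD22 and 4275 ± 427 with IgG, with a log2 fold change of -0.0063 and a 95% interval of -0.16 to 0.15. Pfkfb4 averaged 3514 ± 391 normalized counts with anti-CD22 and 3574 ± 587 with IgG (log2 fold change -0.015, 95% interval -0.22 to 0.19). Pdk1 is the kinase that inhibits pyruvate dehydrogenase and so limits the oxidation of pyruvate in the mitochondria. Its gene averaged 3954 ± 339.7 normalized counts with anti-CD22 and 3808 ± 306 with IgG (log2 fold change 0.054, 95% interval -0.087 to 0.19). With the trend removed the values were -0.074 for Pfkfb3, 0.0074 for Pfkfb4 and -0.052 for Pdk1, and without the 3 libraries that of Pfkfb3 was 0.011.

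None of the 7 pentose phosphate genes passed the threshold, and their log2 fold changes ran from -0.17 for Pgls to 0.025 for G6pdx. In the oxidative arm, G6pdx, the glucose 6-phosphate dehydrogenase that commits glucose to NADPH production, averaged 2924 ± 246 normalized counts with anti-CD22 and 2871 ± 211 with IgG (SD, n = 7 each; log2 fold change 0.025, 95% interval -0.12 to 0.17). Pgls, the lactonase, averaged 1136 ± 207 normalized counts with anti-CD22 and 1269 ± 196 with IgG (log2 fold change -0.17), and Pgd, which makes the second NADPH, averaged 2919 ± 298 normalized counts with anti-CD22 and 3075 ± 226 with IgG (log2 fold change -0.078). Without anti-CD22 replicates 1, 2 and 3 the values were -0.055 for G6pdx, 0.0076 for Pgls and 0.012 for Pgd, each of the other sign than with all libraries. With the trend removed they were 0.067 for G6pdx and -0.087 for Pgls. Leaving out anti-CD22 replicate 2 alone gave -0.099 for Pgls and -0.042 for Pgd.

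In the non-oxidative arm, transaldolase was the most abundant member. Taldo1 (chr7:141392199-141402968) had 5563, 6643 and 7144 normalized counts (lowest, median and highest) in the anti-CD22 libraries, against 6694, 7107 and 7593 in the IgG libraries. The lowest 4 anti-CD22 libraries lay below every IgG library, and the others within the IgG range. The estimate, a log2 fold change of -0.14 (SE 0.058, 95% interval -0.26 to -0.020, limma adjusted p = 0.338), was -0.044 after removal of the trend and -0.052 when the 3 libraries were left out. Tkt, transketolase, averaged 4138 ± 568 normalized counts with anti-CD22 and 4534 ± 451 with IgG (log2 fold change -0.14, and -0.0061 without the 3 libraries). Rpe, the ribulose phosphate epimerase, averaged 751 ± 113 normalized counts with anti-CD22 and 742 ± 99.4 with IgG (log2 fold change 0.015), and Rpia averaged 63.5 ± 23.4 normalized counts with anti-CD22 and 71.9 ± 27 with IgG (log2 fold change -0.16, 95% interval -0.79 to 0.47). With the trend removed Rpe stood at -0.058, and without the 3 libraries Rpe stood at -0.092 and Rpia at 0.15. Taldo1 was the 1 of the 7 pentose phosphate members at an unadjusted limma p under 0.05, a share near the 12.8% of all genes tested. With the length and GC trend removed 0 of the 7 were, against 8.93% of all genes.

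The mean of each role over its genes, as log2 values centred per gene, gave the values per library. Glycolysis ranged from -0.16 to 0.10 with anti-CD22 and from -0.090 to 0.16 with IgG, and 6 of the 7 anti-CD22 libraries stood below the median of the IgG libraries. The lactate genes ranged from -0.25 to 0.037 with anti-CD22 and from -0.074 to 0.21 with IgG, with every anti-CD22 library below the IgG median. The group difference was -0.11 for glycolysis, -0.18 for lactate, 0.053 for the regulators and -0.091 for the pentose phosphate pathway, beside pooled SDs of 0.085, 0.10, 0.10 and 0.12. Anti-CD22 replicates 1, 2 and 3 were the 3 lowest anti-CD22 libraries in the lactate and pentose phosphate genes, and these are the libraries with the steepest length trend. With the trend removed they were still the 3 lowest in the pentose phosphate genes, at -0.14, -0.19 and -0.12, against -0.13, -0.21 and -0.14 before. In the lactate genes they then stood at -0.18, -0.062 and -0.15, with anti-CD22 replicate 6 at -0.072. Without replicates 1, 2 and 3 the median log2 fold change was -0.095 for the lactate genes, against -0.17 with them. For the pentose phosphate genes it was -0.0061, against -0.14. For the glycolysis genes it was -0.085, against -0.12.

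**Figure D5:**
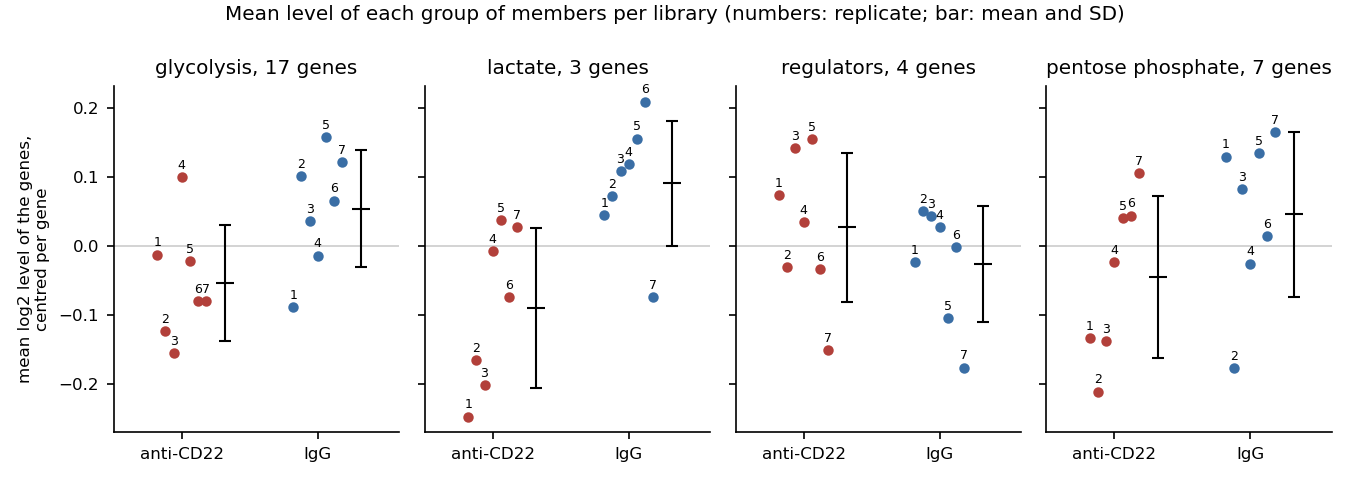
Mean log2 level of the genes of each role per library, centred per gene, with the replicate number at each point and mean and SD at the side, anti-CD22 left and IgG right of each panel. In the lactate panel anti-CD22 libraries run from -0.25 to 0.037 and IgG libraries from -0.074 to 0.21, and the groups overlap in every panel.

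Isoenzyme use within steps was compared as 8 log2 ratios, in which the size factor of a library cancels. None passed an adjusted p of 0.05 by the exact permutation test over 3432 assignments, and the count at an unadjusted p under 0.05 was 0. The nearest was Hk2 to Hk1, which differed by 0.30 (SE 0.14, two-sided exact permutation p = 0.0583, adjusted p = 0.466), with every anti-CD22 library above the IgG median. Its log2 ratios ranged from 0.99 to 1.46 with anti-CD22 and from 0.47 to 1.30 with IgG. After removal of the trend the difference was 0.23. The differences of the remaining 6 ratios ran from -0.21 for Pfkm to Pfkl to 0.25 for Aldoc to Aldoa.

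Further genes of the pathway were read from lists outside the 31 members. Of 16 tested other glycolysis genes 0 passed the threshold, and 13 had a value below 0 (median -0.062), of 5 fructose 2,6-bisphosphate and gluconeogenesis enzymes 0 passed (median -0.062), and of 16 other lactate and pyruvate genes 0 passed (median -0.032). Of 6 other pentose phosphate genes, 14 HIF pathway genes and 8 glycogen genes 0 passed, with medians of 0.016, 0.065 and 0.092. At an unadjusted limma p under 0.05 stood 2 other glycolysis genes, 5 other lactate and pyruvate genes, 1 other pentose phosphate gene and 1 HIF pathway gene, where 12.8% of all genes tested did. In each list the genes with the smallest p are named. Mpc2, a subunit of the carrier that takes pyruvate into mitochondria, averaged 659.8 ± 109 normalized counts with anti-CD22 and 827 ± 67.6 with IgG, with a log2 fold change of -0.34 (adjusted p = 0.238). Pdpr, a regulatory subunit of the phosphatase that reactivates pyruvate dehydrogenase, averaged 191 ± 54.5 normalized counts with anti-CD22 and 118 ± 39.6 with IgG (log2 fold change 0.71, adjusted p = 0.249). Pgm2, which interconverts sugar phosphates, averaged 1348 ± 253 normalized counts with anti-CD22 and 1622 ± 109 with IgG (log2 fold change -0.29).

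Dera, deoxyribose phosphate aldolase, averaged 662 ± 116 normalized counts with anti-CD22 and 852 ± 133 with IgG, with a log2 fold change of -0.36, and Rbks, ribokinase, averaged 167 ± 36.5 normalized counts with anti-CD22 and 205 ± 15.8 with IgG (-0.32). Vhl, the ubiquitin ligase subunit that marks HIF-1 for decay, averaged 7301 ± 170.1 normalized counts with anti-CD22 and 6806 ± 427 with IgG (0.10), and Egln2, an oxygen-sensing prolyl hydroxylase of HIF, averaged 1179 ± 100.4 normalized counts with anti-CD22 and 1329 ± 175 with IgG (-0.17). Tigar, a fructose 2,6-bisphosphatase, averaged 147 ± 33.8 normalized counts with anti-CD22 and 187 ± 29.5 with IgG (-0.36), and pyruvate carboxylase (Pcx) averaged 329.8 ± 93.5 normalized counts with anti-CD22 and 387 ± 65.4 with IgG (-0.26). Pygl, the liver-type glycogen phosphorylase, averaged 266 ± 64.5 normalized counts with anti-CD22 and 411 ± 235 with IgG (-0.49), and Gbe1, the glycogen branching enzyme, averaged 1136 ± 119.9 normalized counts with anti-CD22 and 1254 ± 170.4 with IgG (-0.14). The bracketed values are log2 fold changes, and their limma adjusted p ran from 0.275 for Dera to 0.558 for Gbe1. For Pygl the highest IgG library, replicate 1 at 898 normalized counts, was also that with the highest neutrophil and monocyte sums, and without it the log2 fold change was -0.28; the part of those cells was not tested. Rbks stood at -0.21 without anti-CD22 replicate 1. Without anti-CD22 replicates 1, 2 and 3 the values were -0.17 for Mpc2, -0.15 for Rbks, -0.080 for Egln2 and 0.0023 for Pcx, and with the trend removed they were -0.025 for Egln2 and -0.22 for Gbe1.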

How the data were processed

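RNA of sorted microglia was sequenced in 7 libraries per group as paired reads of 100 bp. The submitters' processing notes and design text name bcl2fastq, STAR, the build mm10, SummarizedExperiment for counting and DESeq2. Versions, the annotation and any strand setting were not given in the sources used here. Values of the deposited table are a signal, counts per gene that the authors divided by 1 size factor per library. The table has 24421 entries and 0 columns without a sample; 27 entries with names turned into dates (at most 0.149% of counts) were left out. Groups came from the sample titles.

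Genes were tested with limma 3.58.1 (R 4.3.3) on log2 of the normalized count plus 1, with a mean-variance trend, two-sided, at a mean of at least 10 over all libraries (11646 genes), with Benjamini-Hochberg adjustment over all of them and a threshold of 0.05. A fold change on this scale understates low genes. Whole reads were recovered for 13 libraries (100% of values whole within 0.1 reads) and tested with edgeR 4.0.16 and DESeq2 1.42.0, which called 0 and 32 genes. Anti-CD22 replicate 3 was left out of these, although its values were also 100% whole at a step of 1.01. The count models thus lack a library that limma used. Isoenzyme ratios had an exact permutation test. Length and GC were those of the longest transcript of each gene in GENCODE vM21 on GRCm38, which is mm10, for 96.4% of tested genes. In some members that transcript is far longer than the principal one. Examples are Gapdh (3289 against 1420 bases), Pgls (2688 against 893) and Pfkp (8681 against 4145). Natural splines fitted per library took out their trend. Per kilobase values use the longest principal transcript. Python was 3.11.15, with pandas 2.3.3 and matplotlib 3.10.9. The pipeline was tested on simulated counts.

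All members are named. Those given per library are the 4 with the smallest p and the most abundant of each role per kilobase. Of other lists the 2 smallest p are named. The members and lists were chosen with earlier results of these data known. Alternatives were other pseudocounts, filters, scalings, variance models, count models, sample weights, a replicate block, a threshold of 0.10 and leaving out libraries. No 2 replicates agreed within counting error (lowest chi-square per gene 17.8). With no molecular identifiers, reads are not independent molecules.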

Additional observations from a re-analysis of the deposited data

Results flagged for a closer look

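In the IgG group, 1 library lay far from the other 6 in each of 2 genes, of 62 groups of 7 values examined. Chance gives about 1 in 20, so 2 of 62 is no more than chance alone would give. Gpi1 stood at 4231 normalized counts in IgG replicate 1, with the next highest IgG library at 3495. That library also had the highest neutrophil and monocyte marker sums (40365 and 9181), and their part in the value was not tested. Pgam1 stood at 4308 in IgG replicate 3, with the next highest at 3796. Without IgG replicate 3 its log2 fold change was -0.053, against -0.086 with it.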

How the results depend on the processing

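The count of members past the threshold, of those with an adjusted p, was 0 under every alternative run: other pseudocounts, filters, scalings and variance models, the count models, the threshold of 0.10, the replicate block and leaving out each library in turn. The count of all genes past it was 1 and became 0 without the mean-variance trend, 8 with sample weights, 2 with the replicate block, 0 with the length and GC trend removed, 0 without anti-CD22 replicates 1, 2 and 3, 0 by edgeR, 32 by DESeq2 and 4 at a threshold of 0.10. Leaving out 1 library it ran from 0 to 43, the last without anti-CD22 replicate 7. The median of the pentose phosphate members was -0.0061 without anti-CD22 replicates 1, 2 and 3, where fewer libraries entered. Other moves of the role medians stayed below 1 pooled SD between libraries, but some were large beside the medians. Once the length and GC trend was taken out, the lactate median was -0.079, against -0.17 in the main fit. That of the regulators turned from 0.024 to -0.022. The glycolysis median was then -0.084, against -0.12, and the pentose phosphate median -0.087, against -0.14. Leaving out 1 library, the medians ran from -0.15 to -0.11 for glycolysis, -0.20 to -0.14 for lactate, -0.0059 to 0.046 for the regulators and -0.16 to -0.058 for the pentose phosphate genes.

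Of 462 member values under 15 other settings, 434 kept their sign and 28 turned, in 11 members; 20 members never turned. The cause was not tested. After removal of the trend, with or without the replicate block, the log2 fold changes were -0.058 for Slc2a3, 0.0074 for Pfkfb4, -0.052 for Pdk1 and -0.058 for Rpe. Without anti-CD22 replicates 1, 2 and 3 they were -0.10 for Slc2a3, -0.11 for Aldoc, 0.17 for Eno1, 0.011 for Pfkfb3, -0.055 for G6pdx, 0.0076 for Pgls, 0.012 for Pgd, 0.15 for Rpia and -0.092 for Rpe. By edgeR and DESeq2 they were -0.13 and -0.14 for Aldoc, 0.045 and 0.041 for Eno1, and -0.032 and -0.035 for Rpe. Pfkfb3 was 0.0060 scaled to the same total, 0.0096 with quantile normalization and 0.022 with sample weights, and Rpe -0.0050 with quantile normalization and -0.00076 with sample weights.

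Leaving out 1 library, 24 members never turned, and the others ran from -0.015 to 0.15 for Slc2a3, -0.17 to 0.35 for Aldoc, -0.22 to 0.081 for Eno1, -0.047 to 0.030 for Pfkfb3, -0.068 to 0.037 for Pfkfb4, -0.0026 to 0.052 for G6pdx and -0.045 to 0.065 for Rpe. Of the ratios, Hk3 to Hk1 was 0.040 after removal of the trend and 0.044 without the 3 libraries, Aldoc to Aldoa -0.062 and Slc2a3 to Slc2a1 -0.013 without them, and Pfkfb4 to Pfkfb3 0.081 with the trend removed. Leaving out 1 library, ratios ran from -0.060 to 0.039 for Hk3 to Hk1, -0.22 to 0.14 for Pfkp to Pfkl, -0.061 to 0.48 for Aldoc to Aldoa and -0.053 to 0.059 for Pfkfb4 to Pfkfb3. No ratio passed the threshold under any of the settings run for ratios. Same-numbered samples had correlations from -0.15 to 0.16, and no sample correlated best with its own number. Eno1, Rpia, Aldoc, Pfkp and Pfkm had the widest 95% intervals of the members.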

Other observations

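Genes that act on pyruvate dehydrogenase held values not given above, chosen after they were seen. Pdp1 and Pdp2, the catalytic subunits of pyruvate dehydrogenase phosphatase, were both measured. Pdp1 averaged 434 ± 65.4 normalized counts with anti-CD22 and 316 ± 127 with IgG (SD, n = 7 each; log2 fold change 0.54, limma adjusted p = 0.309). Pdp2 averaged 269 ± 46.5 normalized counts with anti-CD22 and 203 ± 17.1 with IgG (log2 fold change 0.40, limma adjusted p = 0.285). Every anti-CD22 library stood above the median of the IgG libraries for Pdp1, Pdp2 and Pdpr. None passed the threshold. Without anti-CD22 replicates 1, 2 and 3 the values were 0.62 for Pdp1, 0.54 for Pdp2, 0.49 for Pdpr and -0.17 for Mpc2.

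Bsg, the chaperone of the lactate transporters, averaged 10789 ± 1055 normalized counts with anti-CD22 and 11857 ± 605 with IgG, a log2 fold change of -0.14 (adjusted p = 0.349) that was -0.016 with the length and GC trend removed. P4ha1, a collagen prolyl hydroxylase subunit and known HIF target, averaged 14828 ± 451 normalized counts with anti-CD22 and 13795 ± 1561 with IgG, with a log2 fold change of 0.11 (adjusted p = 0.462) that was 0.066 without IgG replicate 1. Vegfa, another HIF target, had means of 22.8 normalized counts with anti-CD22 and 34.6 with IgG.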
